A study of Mus musculus with 2 samples.

Results

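IGHV1-64, IGHV1-80 and IGHV1-82 are 3 variable gene segments of the mouse antibody heavy chain that lie near the far end of the locus. They were chosen by name for their number of cells: each is among the 10 most used of 95 IGHV genes over both libraries. Together they were the heavy chain V gene of 572 of 6241 cells. IGHV1-64 was used by 215 cells and ranked 3, IGHV1-82 by 188 cells and ranked 6, and IGHV1-80 by 169 cells and ranked 9. At the edge of the choice, the gene ranked 10, IGHV1-9, had 165 cells and the gene ranked 11, IGHV1-55, had 157. IGHV1-72, another gene of that end, ranked 7 with 185 cells and lies 2328.2 kb from Ighj1, the first J gene; it stays among the IGHV1 genes compared with these 3. These numbers of cells chose the genes and are a description.

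Leukocytes were enriched by their surface marker CD45, with magnetic beads, from Peyer's patches, which are lymphoid tissue in the wall of the small bowel. Their B cell receptors were read in droplets with a 10x Genomics 5' V(D)J kit. Both groups were adult female mice homozygous for the floxed H2-Ab1 allele, which encodes the beta chain of MHC class II. One library, called Cre+ below, is from H2-Ab1 fl/fl; Villin:Cre+ mice, in which the Villin promoter drives the recombinase in intestinal epithelium. The other, called Cre-, is from H2-Ab1 fl/fl; Villin:Cre- mice. With 4 mice pooled in the 1 library of each genotype, genotype and library cannot be told apart and no test was made. The sample labels gave the genotypes; the series' design text writes Villin:Cre- for both groups, and H2-Ab1 was not measured here.

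A heavy chain variable region is assembled in each developing B cell from 1 V, 1 D and 1 J segment. The joint codes for the third complementarity-determining region (CDR3), which often contacts antigen most closely. IGHV1 is the largest V family of the mouse, and segments far from the D and J genes are brought to them by contraction of the locus. A naive B cell makes IgM and IgD from the same joint. In germinal centres, which Peyer's patches form in response to gut microbes, B cells mutate their variable regions and switch to IgA or IgG.

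The Cre+ library held 3748 barcodes and 3294 cells with exactly 1 productive heavy chain, from 355258 unique molecular identifiers (UMIs, which count molecules). The Cre- library held 3245 barcodes and 2947 such cells from 355985 UMIs. The 3 genes supplied 301 cells in Cre+ and 271 in Cre-. A productive light chain, the partner that defines a B cell receptor, was found in 299 and 271 of these, and a T cell receptor chain in 0 of either. The median cell of the 3 genes had 8 heavy chain UMIs in Cre+ and 9 in Cre-, against 7.5 and 8 in the other IGHV1 cells. The libraries shared 10 cell barcodes, 1 of them on a cell of the 3 genes in each library. All intervals below are exact 95% Clopper-Pearson intervals, or are combined from 2 of them for a difference, and they cover counting error only. Cells of 1 clone are not independent, so the true uncertainty is wider. The comparison set was the 3047 cells of the other IGHV1 genes.

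The joints of the 3 genes begin alike. The most common first 9 nucleotides, TGTGCAAGA, were the same in all 3 genes. They opened 75.4% of IGHV1-64 joints in Cre+ and 66.7% in Cre-, 83.1% and 76.1% of IGHV1-80 joints, and 74.5% and 79.1% of IGHV1-82 joints. Which V gene a cell used was taken from the deposited call. To show such a joint, 1 unswitched cell of each gene with the D gene IGHD1-1, the J gene IGHJ2 and 14 residues is printed below, the one with the most heavy chain UMIs. Capitals mark the first 9 nucleotides, the V end, and the rest runs through D into J.
IGHV1-64 (Cre-): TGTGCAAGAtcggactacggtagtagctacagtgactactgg
IGHV1-80 (Cre+): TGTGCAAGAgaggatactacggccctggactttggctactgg
IGHV1-82 (Cre+): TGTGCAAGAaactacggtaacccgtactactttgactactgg

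With all cells counted, the library difference in share included 0 for each of the 3 genes. The share of IGHV1-80 was the lower one in Cre+, and those of IGHV1-64 and IGHV1-82 in Cre-. IGHV1-64 was used by 122 of 3294 cells in Cre+ (3.70%, interval 3.09 to 4.41) and by 93 of 2947 in Cre- (3.16%, 2.55 to 3.85). IGHV1-82 was used by 102 cells in Cre+ (3.10%, 2.53 to 3.75) and 86 in Cre- (2.92%, 2.34 to 3.59). IGHV1-80 was used by 77 cells in Cre+ (2.34%, 1.85 to 2.91) and 92 in Cre- (3.12%, 2.52 to 3.82). The IGHV1-80 difference of -0.78 points (interval -1.63 to 0.05) included 0. It also did with heavy chains of 3 or more UMIs (-0.63, -1.52 to 0.23) and with cells that had a light chain (-0.82, -1.69 to 0.02). Among switched cells (IgG or IgA) it was -0.22 (-1.49 to 1.46). With all distinct heavy chains counted it was -0.87 (-1.68 to -0.07), and with a lineage counted once per isotype class -1.11 (-2.06 to -0.19). The Cre- library also held 1 expanded IgA lineage of another V gene, which fills part of its cell total. With each library's largest lineage left out, the IGHV1-80 difference was -1.25 points (-2.20 to -0.34). Among unswitched cells (IgM or IgD) it was -1.17 points (-2.19 to -0.19), from 2.54% in Cre+ and 3.71% in Cre-. The corresponding unswitched shares were 3.78% and 3.71% for IGHV1-64 and 3.23% and 3.40% for IGHV1-82. None of the 3 genes (0 of 3) differed 1.5-fold between the libraries, whereas 15 of the 64 IGHV genes with 20 or more cells did (23.4%). With 1 library per genotype these differences have no replicate check.

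In the RefSeq gene table of GRCm38.p6, the 3 genes are V segments on chromosome 12 and were the 154th, 177th and 179th of 183 V genes counted from the J genes. Ighv1-64 lies at chr12:115507587-115507977, 2077.8 kb from Ighj1. Ighv1-80 lies at chr12:115912344-115912637, 2482.5 kb from Ighj1, and Ighv1-82 at chr12:115952538-115952831, 2522.7 kb. High usage did not extend to all their neighbours. IGHV1-63, 11.96 kb from IGHV1-64, was used by 10 Cre+ and 10 Cre- cells, and the pseudogenes Ighv8-10 and Ighv1-65 on its other side by 0. IGHV1-81, which sits between IGHV1-80 and IGHV1-82, was used by 68 and 56 cells. IGHV1-79 and IGHV1-83, the outer neighbours of that group, were used by 0 cells in both libraries, IGHV1-84 by 5 and 8, and IGHV1-85 by 24 and 19. In productive chains, a gene with many cells and a gene with none thus lay next to each other in the same stretch of the locus. The gene table lists IGHV1-79 and IGHV1-83 as V segments, but whether they can form a productive chain was not examined here.

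**Figure D1:**
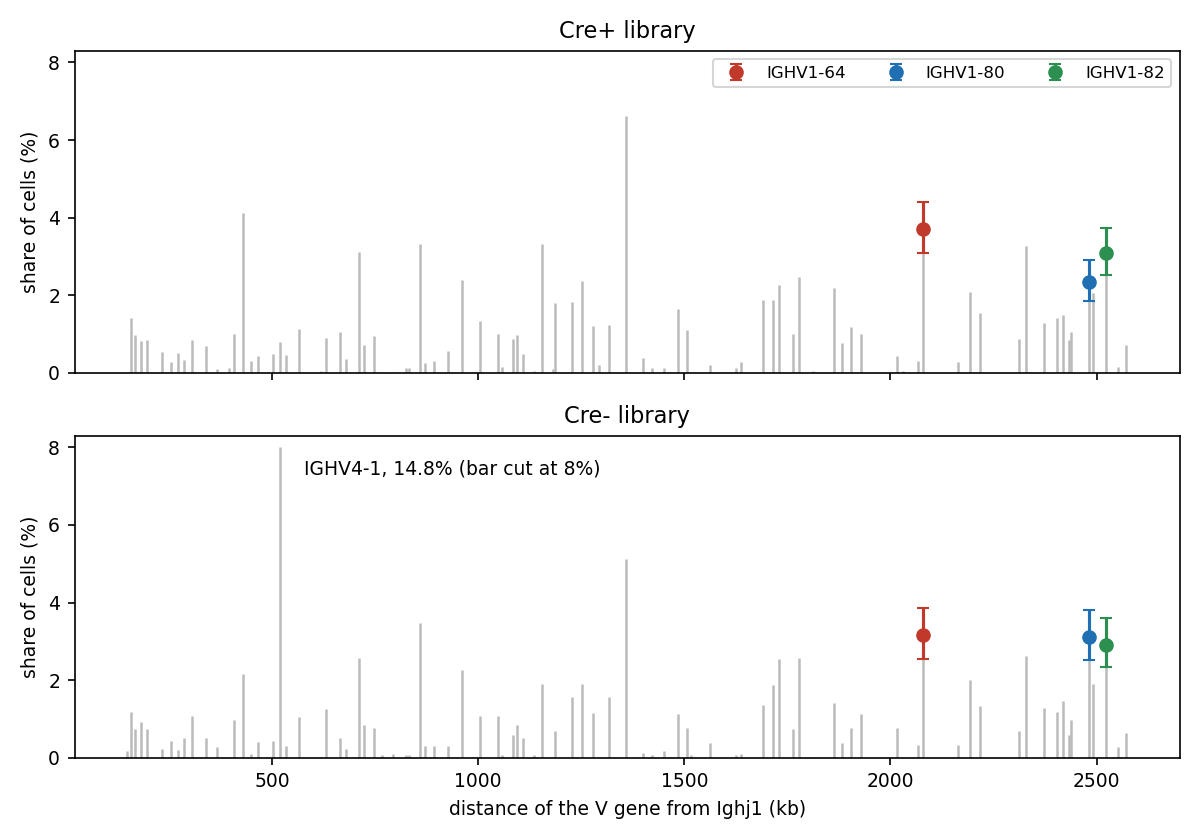
Share of cells (percent, vertical axis) that used each IGHV gene against its distance from Ighj1 (kb, horizontal axis), in the Cre+ (top) and Cre- (bottom) library. Grey lines are single genes, the IGHV4-1 line of the Cre- library is cut short, and coloured points with exact 95% intervals are the 3 genes, which stand at 2.34% to 3.70%.

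Most cells of the 3 genes were unswitched. The switched share (IgG or IgA) of IGHV1-64 was 9.09% in the Cre+ library (11 of 121) and 9.68% in the Cre- library (9 of 93). That of IGHV1-82 was 7.84% (8 of 102) and 10.5% (9 of 86). IGHV1-80 had the lowest shares of the 3, 3.90% (3 of 77) and 7.69% (7 of 91). The other IGHV1 cells were switched in 10.5% and 10.1%. Each gene's interval included the value of the other IGHV1 cells; the upper end for IGHV1-80 in Cre+ was close to it, at 10.97.

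The split of unswitched cells between IgM and IgD differed between the libraries in opposite directions in IGHV1-80 and IGHV1-82, at the edge of counting error. A naive cell can carry both transcripts and was counted under the one assembled with its chain. IgD was read in 45.5% of IGHV1-80 cells in the Cre+ library and in 28.6% in the Cre- library, a difference of 16.9 points (1.44 to 31.7). The IgM difference of IGHV1-80, -13.1 points (-28.3 to 2.72), included 0. In IGHV1-82 IgD was read in 27.5% and 40.7%, a difference of -13.25 points (-27.2 to 1.05) that included 0. IgM was read there in 64.7% and 48.8%, a difference of 15.9 points (0.93 to 30.2). IGHV1-64 had 42.2% and 32.3% IgD, and the other IGHV1 cells 31.0% and 29.7%. The IgD difference of IGHV1-80 and the IgM difference of IGHV1-82 belong to 84 shares compared between the libraries for the 3 genes. Of these 84, 4 had an interval without 0. The other 2 were IGHJ1 in IGHV1-80 and IGHD4-1 in IGHV1-82. Among 84 intervals at 95%, some leave out 0 by counting error alone, so these differences are a description. No isotype share of a gene stood 1.5-fold from the other IGHV1 cells in the same direction in both libraries (0 of 12 tried), against 7 of 81 (8.64%) over all IGHV1 genes with 50 or more cells.

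**Figure D2:**
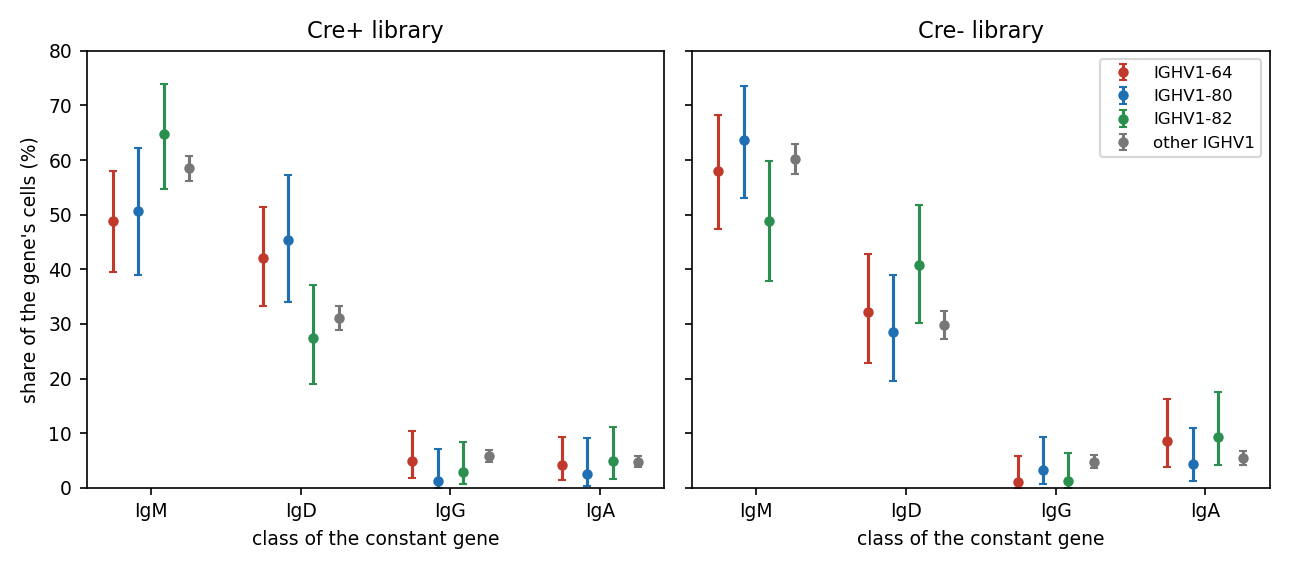
Share of each gene's cells (percent, vertical axis) by class of the constant gene (horizontal axis), Cre+ left and Cre- right, with exact 95% intervals. IgD of IGHV1-80 stands at 45.5% in Cre+ and 28.6% in Cre-, and IgD of IGHV1-82 at 27.5% and 40.7%.

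All IgG of the 3 genes was IgG2b. There were 15 such cells, 10 in Cre+ and 5 in Cre-. IgG1 was read in 0 of 300 Cre+ cells with a constant gene (interval up to 1.22%) and in 0 of 270 Cre- cells (interval up to 1.36%). In the other IGHV1 cells IgG1 was read in 47 of 1728 Cre+ cells (2.72%), of which an expanded IGHV1-9 lineage of 29 cells held most. Without that lineage it was 20 of 1701 (1.18%), and in the Cre- library it was 13 of 1299 (1.001%). The difference of the 3 genes from the other IGHV1 cells was -2.72 points (interval -3.60 to -1.30) in Cre+, -1.18 points (-1.81 to 0.13) in Cre+ without the lineage and -1.001 points (-1.71 to 0.43) in Cre-. Over both libraries it was 0 of 570 cells of the 3 genes, against 33 of 3000 (1.10%) of the other IGHV1 cells without the lineage. The difference was -1.10 points (-1.54 to -0.37), whereas each library alone included 0 without the lineage. Cells were counted singly here, not once per lineage, so this interval is too narrow. IgG2b itself was read in 3.33% and 1.85% of cells of the 3 genes, against 3.01% and 3.70% of the other IGHV1 cells. IgG2c, IgG3 and IgE were read in 0 cells of the 3 genes. IgA, the class secreted into the gut, was read in 12 of 300 Cre+ cells (4.00%) and 20 of 270 Cre- cells (7.41%), against 4.75% and 5.39% of the other IGHV1 cells.

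The switched cells came from many clones. The 47 switched cells of the 3 genes held 45 distinct CDR3 sequences. Among them were 2 cells with over 100 heavy chain UMIs, both in the Cre- library. Antibody-secreting cells carry such transcript levels, but they were not called here. An IgG2b cell with IGHV1-64 and the light chain gene IGKV8-30 had 793 heavy and 2226 light chain UMIs. An IgA cell with IGHV1-82 and IGKV6-17 had 3217 heavy and 11604 light chain UMIs. The remaining switched cells ranged down to 1 UMI, with a median of 13 over all 47. The joints of the 2 cells follow, with the V end in capitals.
IGHV1-64, IgG2b: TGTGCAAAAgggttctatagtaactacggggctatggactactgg
IGHV1-82, IgA: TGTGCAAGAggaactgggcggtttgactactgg

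The J and D genes joined to the 3 genes were those joined to other IGHV1 genes, in close to the same shares. IGHJ2 was the most used, in 39.5% of Cre+ and 42.1% of Cre- cells of the 3 genes, against 39.7% and 38.03% of the other IGHV1 cells. IGHJ4 followed with 23.6% and 24.0%, IGHJ3 with 19.9% and 18.8%, and IGHJ1 with 16.9% and 15.1%. No J share stood 1.5-fold from the other IGHV1 cells in both libraries (0 of 12), against 1.94% over all IGHV1 genes. IGHJ1 in IGHV1-80 was 25.97% in Cre+ and 13.0% in Cre- (difference 12.9 points, 0.22 to 25.7), on either side of the 16.1% and 17.8% in the other IGHV1 cells.

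IGHD1-1 was the most frequent D gene in each of the 3 genes. It was called in 44.2% and 40.5% of IGHV1-64 cells, 33.8% and 40.7% of IGHV1-80 cells and 35.1% and 34.2% of IGHV1-82 cells, against 37.3% and 37.1% of the other IGHV1 cells. Shares of D genes are over cells with a D gene called, which left out 23 Cre+ and 22 Cre- cells. IGHD4-1 was called in 17.02% of IGHV1-82 cells in Cre+ and 6.33% in Cre- (difference 10.7 points, 0.21 to 20.8), beside 12.6% and 10.4% of the other IGHV1 cells. No D share passed the same 1.5-fold rule (0 of 19), against 4.95% over all IGHV1 genes.

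**Figure D3:**
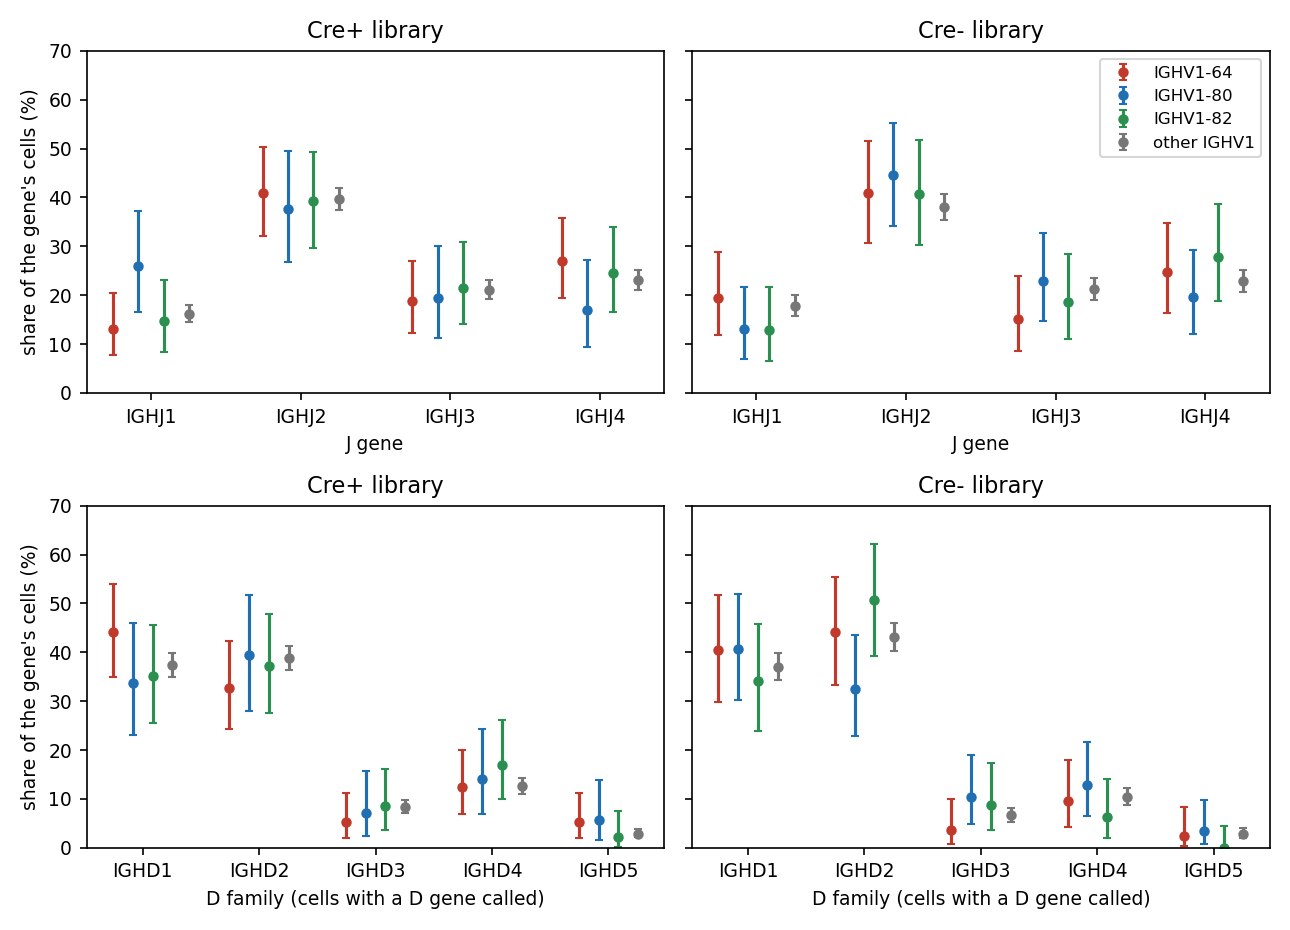
Share of each gene's cells (percent, vertical axis) by J gene (top) and by D family among cells with a D gene called (bottom), Cre+ left and Cre- right, with exact 95% intervals. The 3 genes overlap the other IGHV1 cells, and the IGHJ1 point of IGHV1-80 is 25.97% in Cre+ and 13.0% in Cre-.

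CDR3 length did not separate the 3 genes. The median was 14 residues in each gene and each library, as in the other IGHV1 cells. The means were 14.02 and 13.96 residues for IGHV1-64, 13.9 and 13.8 for IGHV1-80 and 13.9 and 14.2 for IGHV1-82, with SDs over cells of 2.48 to 2.69, and the other IGHV1 cells had 14 and 14.1. Length differed by J gene within the 3 genes. Joints with IGHJ2 had a median of 13 residues in both libraries, and those with IGHJ4 a median of 15. In Cre+ and Cre- the medians were 16 and 15 with IGHJ1, and 14 and 15 with IGHJ3. The extremes show the range that 1 V gene covers. The shortest IGHV1-80 joint, an IgD cell without a D gene called, had 7 residues, and the longest had 21, 1 cell in each library. The Cre+ one is printed, an IgM cell with IGHD1-1 and IGHJ4. Capitals mark the V end.
IGHV1-80, shortest (Cre+): TGTGCAGCCctcaatgtctgg
IGHV1-80, 21 residues (Cre+): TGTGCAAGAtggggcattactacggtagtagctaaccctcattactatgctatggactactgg

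**Figure D4:**
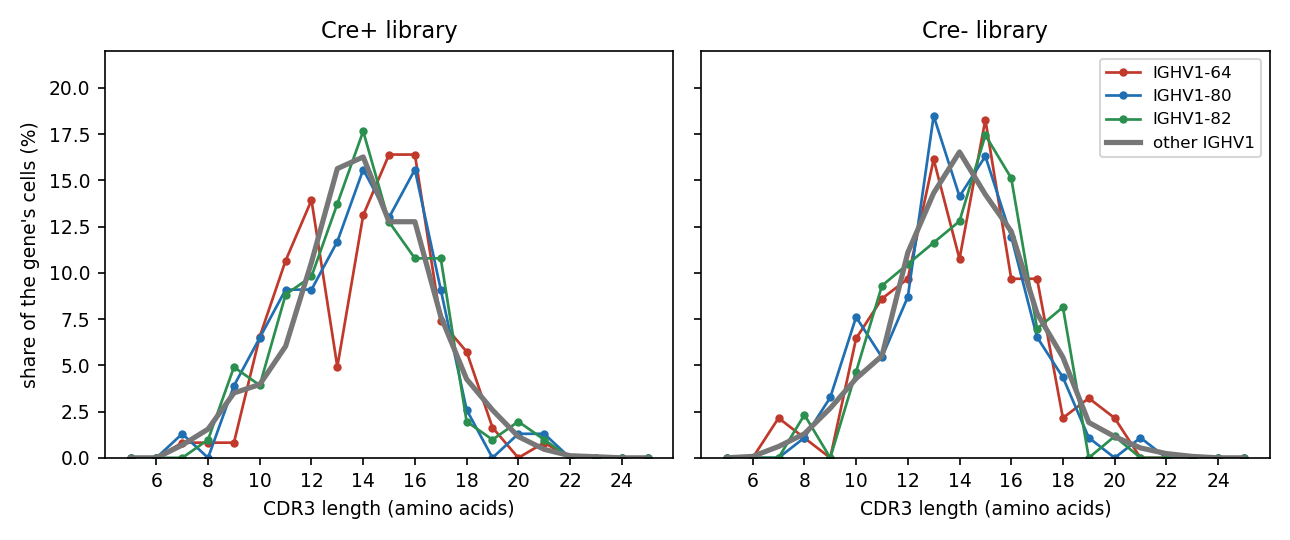
Share of each gene's cells (percent, vertical axis) by CDR3 length in amino acids (horizontal axis), Cre+ left and Cre- right; the thick grey line is the other IGHV1 cells. The curves lie over each other around the shared median of 14 residues.

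On light chains, the lambda share of 1 of the 3 genes stood above that of the other IGHV1 cells in both libraries, within counting error. IGHV1-80 was paired with a lambda chain, the rarer light chain class of the mouse, in 5 of 77 cells in Cre+ (6.49%, 2.14 to 14.5) and 7 of 92 in Cre- (7.61%, 3.11 to 15.1). The other IGHV1 cells had 3.02% and 3.49%. The differences of 3.47 points (-0.97 to 11.5) and 4.12 points (-0.53 to 11.6) both included 0. Over the IGHV1 genes with 50 or more cells, the mean share of the 2 libraries was higher in IGHV1-54 alone, with 5 of 31 and 1 of 22 cells. IGHV1-64 had 2.48% and 3.23% lambda cells and IGHV1-82 had 2.97% and 1.16%. Of 4 light chain shares of the 3 genes that could be tried against the 1.5-fold rule, 1 passed, the lambda share of IGHV1-80. Over all IGHV1 genes it was the only 1 of 14 (7.14%). It could be tried only because its lambda cells found reached 10, as fewer than 10 were expected, so the pass is a description. The lambda shares of IGHV1-64 and IGHV1-82 had too few cells to be tried. So had that of IGHV1-22, with 2 of 40 and 3 of 43 cells (5% and 6.98%). The IGHV1-80 call was lost when only light chains with 6 or more UMIs were used. The Cre+ share was then 3 of 75 (4%), against 2.93% of the other IGHV1 cells, and the Cre- share 6.67% against 3.42%.

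**Figure D5:**
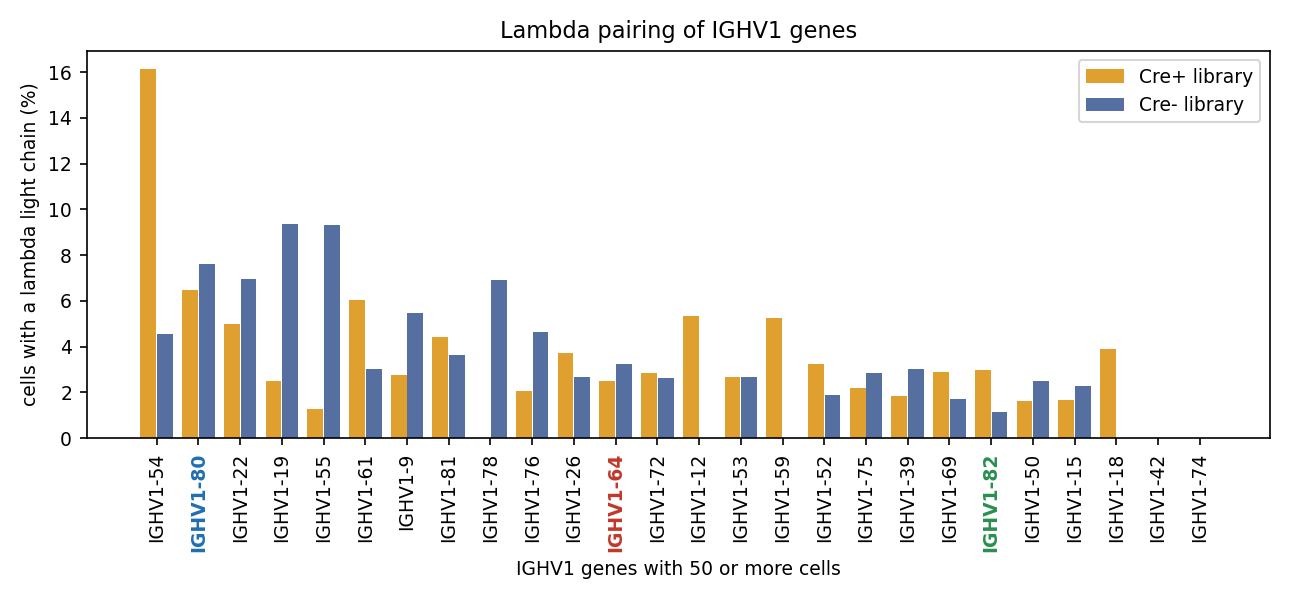
Share of cells with a lambda light chain (percent, vertical axis) for each IGHV1 gene with 50 or more cells (horizontal axis, ordered by the mean of both libraries), Cre+ and Cre- as separate bars. IGHV1-80 stands at 6.49% and 7.61%, IGHV1-64 at 2.48% and 3.23%, and IGHV1-82 at 2.97% and 1.16%.

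All 12 lambda chains of IGHV1-80 used IGLV1. In IGHV1-64 all 3 of the Cre+ library used IGLV1 and all 3 of the Cre- library IGLV3. Of the 12 IGHV1-80 cells, 10 were unswitched and 2 were an IgG2b pair of 1 lineage. A productive kappa chain with no more UMIs than the lambda chain was also present in 3 of the 12. Among the other 10, no lineage held more than 1 lambda cell, and the joints used several D and J genes. In Cre-, 3 of them were each in a lineage pair with a cell that carried a kappa chain. D and J genes are named as deposited. The Cre+ joint called IGHJ4 ends, before the last codon, in the nucleotides most common in IGHJ3 joints (tttgcttac) and not in those of IGHJ4 joints (atggactac). The joints are printed to show that spread, with the V end in capitals.
Cre+, IgD, IGHD4-1, IGHJ1: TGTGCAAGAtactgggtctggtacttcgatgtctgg
Cre+, IgD, IGHD3-1, IGHJ2: TGTGCAAGAtcgggtgactttgactactgg
Cre+, IgD, IGHD1-1, IGHJ1: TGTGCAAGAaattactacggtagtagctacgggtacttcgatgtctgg
Cre+, IgM, IGHD2-3, IGHJ4: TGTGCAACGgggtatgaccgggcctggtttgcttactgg
Cre+, IgM, IGHD2-7, IGHJ2: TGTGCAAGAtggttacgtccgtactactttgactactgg
Cre-, IgD, IGHD2-6, IGHJ2: TGTGCAAGAgatagtaactacggctactgg
Cre-, IgM, no D called, IGHJ2: TGTGCAAGAggcggggactttgactactgg
Cre-, IgM, IGHD1-1, IGHJ1: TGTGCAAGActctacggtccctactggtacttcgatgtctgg
Cre-, IgM, IGHD4-1, IGHJ2: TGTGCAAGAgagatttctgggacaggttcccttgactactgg
Cre-, IgM, IGHD1-1, IGHJ2: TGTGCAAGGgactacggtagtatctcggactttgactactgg

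Among kappa chains the 3 genes drew on 71 IGKV genes in 548 cells, led by IGKV1-117 with 34 cells, IGKV10-96 with 32, IGKV1-135 with 22, IGKV6-23 with 21 and IGKV6-17 with 20. IGKV1-117 was paired with 9.72% and 8.24% of IGHV1-80 kappa cells, against 4.55% and 3.38% of the other IGHV1 kappa cells. IGKV1-110 was paired with 3.39% and 2.22% of IGHV1-64 kappa cells, against 5.21% and 5.39%. These were 2 of 8 shares tried, beside a background of 21.4% over all IGHV1 genes, and the interval of each difference included 0 in both libraries. The IGKV1-117 share could be tried only through its cells found, 7 in each library, as 3.28 and 2.87 were expected. IGKV1-110 stood below the other IGHV1 cells in the rest of the 3 genes too, with 1.39% and 2.35% of IGHV1-80 and 4.08% and 1.18% of IGHV1-82 kappa cells. Over the 3 genes it was 3.12% in Cre+ (difference -2.08 points, -4.14 to 0.82) and 1.92% in Cre- (-3.47 points, -5.38 to -0.69). IGKV1-135 was used by 5.90% of kappa cells of the 3 genes in Cre+ and 1.92% in Cre-, a library difference of 3.98 points (0.49 to 7.60), against 3.41% and 4.18% of the other IGHV1 kappa cells. Kappa V genes were not among the 84 shares counted above. No IGKJ share passed the rule (0 of 12, background 3.96%). Cells with 2 or more productive light chains made up 5.79% and 2.15% of IGHV1-64, 11.7% and 9.78% of IGHV1-80, 11.9% and 10.5% of IGHV1-82, and 7.90% and 7.997% of the other IGHV1 cells.

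Clonal expansion was small in all 3 genes. A lineage was defined as cells of 1 library with the same V gene, J gene and CDR3 length, joined at 85% or more nucleotide identity. The 3 genes held 22 lineages of 2 or more cells, and each was a pair. A light chain V gene was shared in 3 of the 22, so most pairs rest on the heavy chain alone and are not shown to be clones. The share of cells in such lineages was 5.98% (3.58 to 9.29) in the Cre+ and 9.59% (6.36 to 13.7) in the Cre- library, against 9.48% and 5.43% of the other IGHV1 cells. Among switched cells, 3 of 22 and 4 of 25 belonged to a lineage of 2 or more, beside 49.5% and 25.9% of switched cells of the other IGHV1 genes, whose largest lineages had 29 and 5 cells. Of the 3 such Cre+ cells, 1 was an IgA cell paired with an IgM cell that carried another kappa V gene. IGHV1-80 in the Cre- library had the most paired cells, 16 of 92 (17.4%), of which 12 were unswitched.

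A light chain V gene was shared in 3 of the 22 pairs, and in all 3 both cells were switched and of the same class. These pairs are printed because they are the only cells of the 3 genes that share both chains. Capitals mark the nucleotides that differ within a pair, and positions count from the first nucleotide of the CDR3. The IGHV1-64 pair of the Cre+ library was IgG2b with IGKV6-23 and had the same heavy and light chain CDR3 in both cells.
IGHV1-64 heavy, both cells: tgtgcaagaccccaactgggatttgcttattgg
IGHV1-64 light, both cells: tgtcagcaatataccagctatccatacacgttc

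The first IGHV1-80 pair of the Cre- library was the IgG2b pair with IGLV1. The heavy chains differed by the substitution C32G and the light chain CDR3s were identical, with 158 light chain UMIs in 1 cell and 4 in the other.
IGHV1-80 heavy, cell 1: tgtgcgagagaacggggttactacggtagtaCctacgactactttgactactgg
IGHV1-80 heavy, cell 2: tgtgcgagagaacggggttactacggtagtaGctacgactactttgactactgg
IGHV1-80 light, both cells: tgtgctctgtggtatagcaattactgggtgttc

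The second IGHV1-80 pair of the Cre- library was IgA with IGKV12-46. The heavy chains were identical and the light chains differed by T33C at the last nucleotide of the CDR3.
IGHV1-80 heavy, both cells: tgtgcctatgacctctttgcttactgg
IGHV1-80 light, cell 1: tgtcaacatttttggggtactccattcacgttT
IGHV1-80 light, cell 2: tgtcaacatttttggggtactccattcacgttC

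The same joining rule was also applied between libraries, and so between different mice. A partner in the other library was found for 6.64% of Cre+ and 7.75% of Cre- cells of the 3 genes, and for 3.39% and 4.36% of the other IGHV1 cells. By gene it was 9.84% and 11.8% for IGHV1-64, 6.49% and 7.61% for IGHV1-80 and 2.94% and 3.49% for IGHV1-82. IGHV1-26 had 5.96% and 7.95%, and IGHV1-72 had 4.63% and 6.49%. A partner must use the same V gene, so a gene with more cells offers more possible partners, within and between libraries. The 3 genes were chosen for their number of cells, so their share above the other IGHV1 cells is a description. The shares in pairs within a library were 8.20% and 2.15% for IGHV1-64, 5.19% and 17.4% for IGHV1-80, and 3.92% and 9.30% for IGHV1-82. In Cre-, IGHV1-64 had the larger share across libraries, and IGHV1-80 and IGHV1-82 within. In Cre+, IGHV1-64 and IGHV1-80 had the larger share across libraries and IGHV1-82 within, so the order of IGHV1-80 was not the same in both. The Cre+ orders rest on few cells, and their intervals overlapped. Across and within, these were 12 and 10 of 122 cells for IGHV1-64, 5 and 4 of 77 for IGHV1-80, and 3 and 4 of 102 for IGHV1-82. There were 24 such pairs across libraries, of which 1 had a switched cell. The light chain V gene was shared in 1, the pair of IGHV1-80 lambda cells with IGHJ2 and 30 nucleotides printed above (IgD with IGHD3-1 in Cre+, IgM with no D called in Cre-), which differed at 4 nucleotides of the heavy chain CDR3. The closest is printed, an IGHV1-64 pair with IGHJ3 that differed by A9G and G11T and carried IGKV10-96 in the Cre+ cell and IGKV8-24 in the Cre- cell.
IGHV1-64, Cre+, IgD: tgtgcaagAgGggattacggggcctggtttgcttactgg
IGHV1-64, Cre-, IgM: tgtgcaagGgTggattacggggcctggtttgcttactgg

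Mismatches at the V end stood at higher shares in switched than in unswitched cells of the 3 genes, beyond counting error in the Cre- library but not in the Cre+ library. The measure was the share of cells whose first 9 CDR3 nucleotides differed from the most common ones of their V gene in unswitched cells. Trimming at the joint also gives mismatches. It was 21.6% (16.9 to 26.9) of unswitched and 40.9% (9 of 22, 20.7 to 63.6) of switched Cre+ cells. In the Cre- library it was 22.04% (17.01 to 27.8) and 64.0% (16 of 25, 42.5 to 82.0). The difference was 19.3 points (-1.56 to 42.5) in Cre+ and 41.96 points (19.7 to 60.7) in Cre-. With a lineage counted once per isotype class it was 21.7 points (-0.01 to 45.3) and 38.8 points (15.7 to 58.9). In Cre+ the unswitched and switched shares of IGHV1-64 were 24.5% and 27.3% (3 of 11). By gene, the differences in Cre+ and Cre- were 2.73 points (-20.4 to 37.3) and 36.9 points (-1.43 to 64.4) for IGHV1-64. For IGHV1-80 they were 17.1 points (-17 to 74.85) and 67.9 points (23.2 to 83.7). For IGHV1-82 they were 40.2 points (0.91 to 70.2) and 26.3 points (-6.21 to 61.5). In Cre-, 4 of the 6 mismatched switched cells of IGHV1-80 belonged to the IgG2b and IgA pairs printed above. The other IGHV1 cells had 22.3% and 48.9% in the Cre+ and 19.7% and 39.7% in the Cre- library. At the J end, the 9 nucleotides before the last codon, mismatches stood at 19.1% and 27.3% in the Cre+ and 15.5% and 32.0% in the Cre- library for unswitched and switched cells, with overlapping intervals.

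By the shares of isotypes, J genes and D families, the IGHV gene most like IGHV1-64 was IGHV1-81, with a mean distance of 4.82 points, followed by IGHV1-72 and IGHV1-42. Those most like IGHV1-80 were IGHV1-64 at 6.319 points and IGHV1-26 at 6.321, too close to rank, followed by IGHV1-82 at 6.51. Those most like IGHV1-82 were IGHV1-50 at 4.335 points and IGHV1-26 at 4.337, again too close to rank, followed by IGHV9-3 at 5.22. The distance is the mean over isotypes, J genes and D families of the share of cells that would have to change category. Shares were first averaged over the 2 libraries, and 45 genes were compared. No interval was computed for a distance, so the order is a description. The median gene was 10.3, 9.47 and 10.2 points away.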

How the data were processed

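Peyer's patch B cell receptors were read in 2 libraries, 1 per genotype. Cell Ranger and GRCm38 are named in the submitters' processing notes (version not given in the sources used here). The contig tables hold, per the file headers, counts of reads and of UMIs per assembled chain, and the clonotype tables counts of barcodes, all as deposited by the authors; these matched the barcodes recounted from the contigs. No value was normalised. Gene expression of the cells was not used here.

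Cells were barcodes with exactly 1 productive heavy chain; 145 Cre+ and 83 Cre- barcodes with 2 or more, which can be doublets, were left out, and no doublet caller was run. The 3 genes had 19 of 300 and 17 of 167 chains in those barcodes. Where a cell had several productive light chains, the one with most UMIs was used. Shares of isotypes left out 1 cell of the 3 genes in each library with no constant gene. The 1.5-fold rule asks for the same direction in both libraries against the other IGHV1 cells, 10 or more cells found or expected, and 50 or more cells of the gene. No test was made. Genes were named by rule: the 3 genes, IGHV1-26, IGHV1-72, all constant, J and lambda genes, frequent D genes, the 5 leading IGKV genes, genes past the 1.5-fold rule, and the 3 genes most like each by profile. IGHV1-9 and IGHV1-54 and the neighbours in the locus were named after their values were seen. The genes, lists and rules were chosen with earlier results of these data known. All 95 IGHV names matched the RefSeq table of GRCm38.p6, which gave positions; V segment sequences were not analysed here. Alternatives are in the closing section. Scripts used Python 3.11.15, pandas 2.3.3, SciPy 1.17.1 and matplotlib 3.10.9, and were tested on simulated data.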

Additional observations from a re-analysis of the deposited data

How the results depend on the processing

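Of 909 values recomputed under alternatives, 854 stayed inside the main 95% interval and 55 moved out of it. A reversal was counted only where a difference had a main interval without 0 and its new value left that interval. There were 0 of these, but most values could not be counted so. The library difference of IGHV1-82, for example, went from 0.18 to -0.24 points with each library's largest lineage left out. Of those that moved, 4 were shares of a single J or kappa gene; 3 of these were IGHJ3 in Cre- against all other IGHV genes, which include the expanded lineage. The lambda shares of IGHV1-80 ranged over 4% to 6.76% in Cre+ and 5.75% to 8.24% in Cre-; the lowest Cre+ value, at which the 1.5-fold call was lost (1.36-fold), came from light chains with 6 or more UMIs, an alternative chosen after seeing the data, as was the use of cells with exactly 1 light chain (5.88% and 6.02%). Among switched cells alone, the Cre+ and Cre- shares were 3.01% and 1.34% for IGHV1-64 (difference 1.67 points), 0.822% and 1.04% for IGHV1-80, and 2.19% and 1.34% for IGHV1-82. The expanded IgA lineage fills much of the Cre- total of 672 switched cells; with each library's largest lineage left out they were 3.54% and 3.52%, 0.965% and 2.73%, and 2.57% and 3.52%.

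The share of cells in lineages of 2 or more followed the identity rule. At 80% identity it was 22.95% for IGHV1-64, 15.6% for IGHV1-80 and 13.7% for IGHV1-82 in Cre+, and 25.6% for IGHV1-82 in Cre-. At 90% it was 0% for IGHV1-64 in Cre- and for IGHV1-80 in Cre+. With identical CDR3 nucleotides, a shared light V gene or the authors' clonotypes it was 1.64% for IGHV1-64 in Cre+ and 0% for IGHV1-64 in Cre-, IGHV1-80 in Cre+ and IGHV1-82 in both; IGHV1-80 in Cre- had 2.17%, 4.35% and 0% under these 3 rules. The mismatch shares followed the length compared, as more nucleotides give more chances to differ. Over 6 nucleotides the V end gave, in Cre+ and Cre-, 6.56% and 7.53% for IGHV1-64, 5.19% and 6.52% for IGHV1-80, and 8.82% and 4.65% for IGHV1-82. The J end gave 9.02% and 6.45%, then 7.79% and 3.26%, then 2.94% in Cre+ for IGHV1-82. Over 12 nucleotides the J end gave 38.5% and 48.4%, 37.7% and 35.9%, and 37.2% and 38.4%. Shares of contigs not marked productive were 1.24% for IGHV1-80 in Cre+ and 0% for IGHV1-82 in Cre- at 3 or more UMIs. Among full-length contigs the share was 1.08% for IGHV1-82 in Cre-.

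No paired analysis was possible because each genotype has 1 library, and for the same reason no replicate was left out. With 77 to 122 cells per gene and library, intervals of shares within a gene are several points wide, and smaller differences were not detectable at this depth.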

Other observations

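Heavy chain contigs not marked productive were few for the 3 genes. IGHV1-64 had 4 in Cre+ and 0 in Cre-, IGHV1-80 had 4 and 2, and IGHV1-82 had 3 and 4. Marked nonproductive, a record of a joint the cell could not use, were 4 and 0, 2 and 1, and 2 and 1 of these. The rest had no call, and some were partial contigs without a J gene. In the other IGHV1 genes, 68 of 131 and 48 of 99 were marked nonproductive. All contigs not marked productive made up 2.99% and 0% of the IGHV1-64 contigs and 4.65% and 2% of the IGHV1-80 contigs. For IGHV1-82 it was 2.70% and 4.17%, beside 6.49% and 6.70% of the contigs of the other IGHV1 genes. Shares as low were seen in 2 other IGHV1 genes of many cells, 3.75% and 2.47% for IGHV1-26 and 2.38% and 2.5% for IGHV1-72. Only contigs in called cells are in the tables, and 1 nonproductive IGHV1-80 contig was in a barcode whose productive chain also used IGHV1-80.

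A cysteine inside the CDR3, beyond the conserved one at its start, was coded in 5 of 301 Cre+ and 9 of 271 Cre- cells of the 3 genes. IGHV1-82 in the Cre- library held 5 of these in 86 cells (5.81%), IGHV1-64 held 3 in each library, and the other IGHV1 cells had 1.32% and 1.38%. These cells were noticed after their values were seen.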
